A study of Homo sapiens with 6 samples.

Results

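The semaphorins and their plexin and neuropilin receptors, the ephrins and their Eph receptors, the slits and their Robo receptors, and the netrins were examined in triple-negative breast cancer cells depleted of SAM68. The members were taken by gene symbol alone, as the symbols of these families in the deposited expression table, without using any measured value. The families were chosen, however, with earlier results of these data known. They are 63 of the 74852 loci in the table and carry 64 of its gene symbols, because EFNA3 and EFNA4 share a locus. The cells are MDA-MB-231, an established human line of the basal, triple-negative type. Cells of the si-CTRL group received control siRNAs, and those of the si-SAM68 group a mixture of 4 siRNAs that target SAM68, with 3 libraries in each, in 2 successive rounds of transfection with Lipofectamine RNAiMAX, and the labels give the harvest as 24 h after the last round, while the methods of the study give a longer interval. Both groups are the same line and carry no other alteration, and polyadenylated RNA was sequenced. SAM68, encoded by KHDRBS1, is an RNA-binding protein of the STAR family that acts on splicing and other steps of RNA processing. The comparison asks which of these ligands and receptors had another RNA level when SAM68 was depleted.

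The 4 families were first known for steering growing axons, and in other tissues, tumours and blood vessels included, they act on cell adhesion, migration and the cytoskeleton. Class 3 semaphorins are secreted and bind complexes of a neuropilin, which holds the ligand, with an A-type plexin or PLXND1, which signals, while most membrane-bound semaphorins bind plexins directly. Ephrins stay on the membrane, A-type through a lipid anchor and B-type through a transmembrane stretch, and signal in both directions when they meet Eph receptors, which are tyrosine kinases, on a neighbouring cell. Slits are large secreted proteins read by Robo receptors, and netrins are laminin-related secreted proteins read by DCC, neogenin and UNC5 receptors.

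The siRNAs define the si-SAM68 group, so their guide strands are shown, written 5′ to 3′ as the reverse complement of the sequences listed by the study, with the seed (bases 2 to 8) in capitals. The sequence opposite each guide was found in the coding part of KHDRBS1 transcripts of GENCODE, and none of the 4 control siRNAs had a full match there.
siSAM68 1: aUAACGUCcauaugggugc
siSAM68 2: uAUCAGCAcucgcucuuuc
siSAM68 3: aCAGAUAUcauccaucaua
siSAM68 4: uCCCAAUAcagagaucuuu

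KHDRBS1 (hg19, chr1:32479295-32526460) was silenced in every si-SAM68 library. Values are given as normalized read counts, that is, reads of a locus over the size factor of its library. The gene had 15660.4, 14483 and 14737 normalized reads in the control libraries and 583, 602 and 670.2 after depletion, each in the order of replicates 1, 2 and 3, which all later lists keep. The 3 depleted libraries kept 4.13% of the control mean (log2 fold change of −4.60 ± 0.08 standard error (SE), limma adjusted p = 2.13e-09). The exact two-sided permutation test gave p = 0.1, the smallest value that 3 against 3 libraries allow.

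The libraries held between 52625492 and 82568487 reads assigned to loci. The share of a ribosomal RNA locus was 15.1% in the si-SAM68 replicate 2 library and 1.83% to 3.17% elsewhere. The labels do not say whether the replicates were separate cultures, so p-values measure the spread between these libraries, which may be technical. In RNA from a whole culture, fewer cells that make a transcript and less transcript per cell cannot be told apart. VIM, a mesenchymal marker of this line, was at 157264 normalized reads in si-CTRL and 142224 in si-SAM68, while the epithelial genes CDH1 and EPCAM had means of at most 7.05, ESR1 of at most 10.0, and PGR was at 0. The 7 luminal genes summed to 2109 to 2465 normalized reads in si-CTRL and 2712 to 3294 in si-SAM68. Of the 3 tested, ERBB3 (log2 fold change 0.99, limma adjusted p = 0.00297) and KRT19 (0.37, adjusted p = 0.0309) were higher in si-SAM68. GATA3 was not called (−0.13, adjusted p = 0.669). The 5 mesenchymal genes had sums of 303187 to 371554 in si-CTRL and 312737 to 325199 in si-SAM68. Of these, ZEB1 alone was called, lower (−0.63, adjusted p = 0.0118). The uncalled ones lay on both sides of 0, such as AXL (0.27, adjusted p = 0.0969) and VIM (−0.14, adjusted p = 0.333). The part of these shifts in the results on ligands and receptors was not tested.

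Of the 63 member loci, 50 had a mean of at least 10 normalized reads over the 6 libraries and were tested. At an adjusted p under 0.05, 13 of the 50 (26%) differed between si-SAM68 and si-CTRL, 3 higher and 10 lower, beside 10.7% of all 18849 loci tested, 4.47% of which were higher and 6.23% lower. The thresholds of the study (a fold change of 1.5 or more at an unadjusted p up to 0.05) were applied to the limma fit used here. With them 7 members (14%) passed, and each of the 7 was lower. These are not the calls of the study, which came from its own analysis. Over all loci tested 7.67% passed these thresholds, 2.83% higher and 4.83% lower. In 20 members (40%) the 3 libraries of each group did not overlap, beside 33.9% of all loci tested. The median log2 fold change of the 50 was −0.17, with 19 above and 31 below 0 and a range from −0.96 to 0.52, and that of all loci tested was 0.01. By role, none of the 21 tested receptors rose and 6 fell, while of the 29 tested ligands 3 rose and 4 fell, and the roles were not tested against each other. The other 37 tested members did not pass the adjusted threshold.

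**Figure D1:**
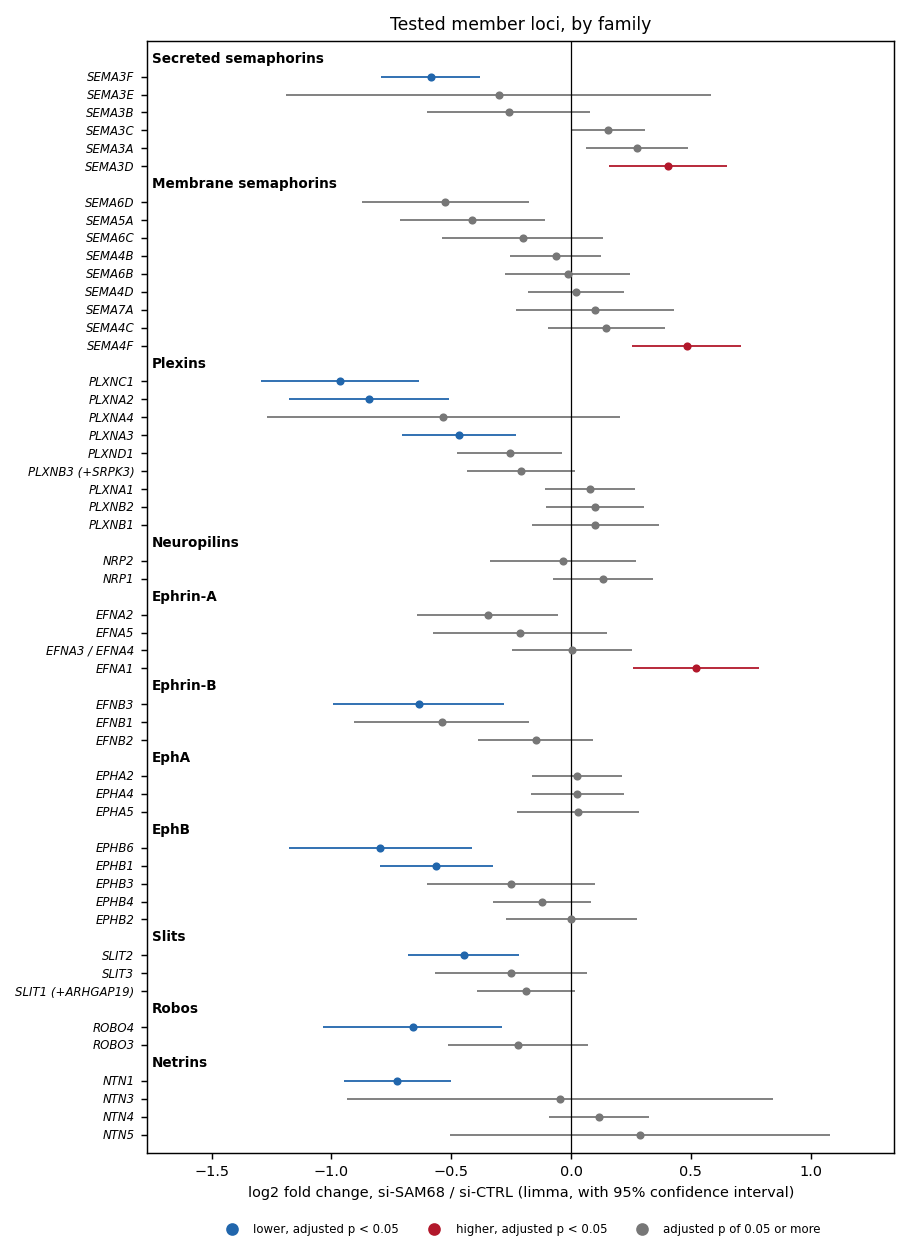
Log2 fold change of the 50 tested member loci (horizontal axis, si-SAM68 over si-CTRL, 3 libraries each), grouped by family, with 95% confidence intervals from limma. The 10 members in blue were lower and the 3 in red higher at an adjusted p under 0.05, and the interval of PLXNC1 lies farthest to the left, from −1.30 to −0.63.

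Levels of different genes were set side by side as normalized reads per kilobase of exon, using GENCODE exon lengths. SEMA7A (5818 in si-CTRL, a lipid-anchored semaphorin) and EPHA2 (5479, an Eph receptor abundant in many carcinoma lines) stood above all other members, and SLIT2 (2214), PLXNB2 (1493) and SEMA4B (1357) followed. In SEMA7A the 3 control libraries ran from 15884 to 25700.3 normalized reads and those of si-SAM68 from 20389 to 23136, so the groups overlapped, and EPHA2 had control values of 23647, 20484 and 21028 and si-SAM68 values of 22413, 23256 and 20530.5. The order of these leading members is given without a test, and the control ranges of SEMA7A and EPHA2 per kilobase overlap. Their log2 fold changes were 0.10 (95% confidence interval −0.23 to 0.43) for SEMA7A and 0.02 (−0.16 to 0.21) for EPHA2. The 3 highest members were thus not among the 7 that passed the thresholds of the study, and of the 5 named here SLIT2 alone passed the adjusted threshold.

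**Figure D2:**
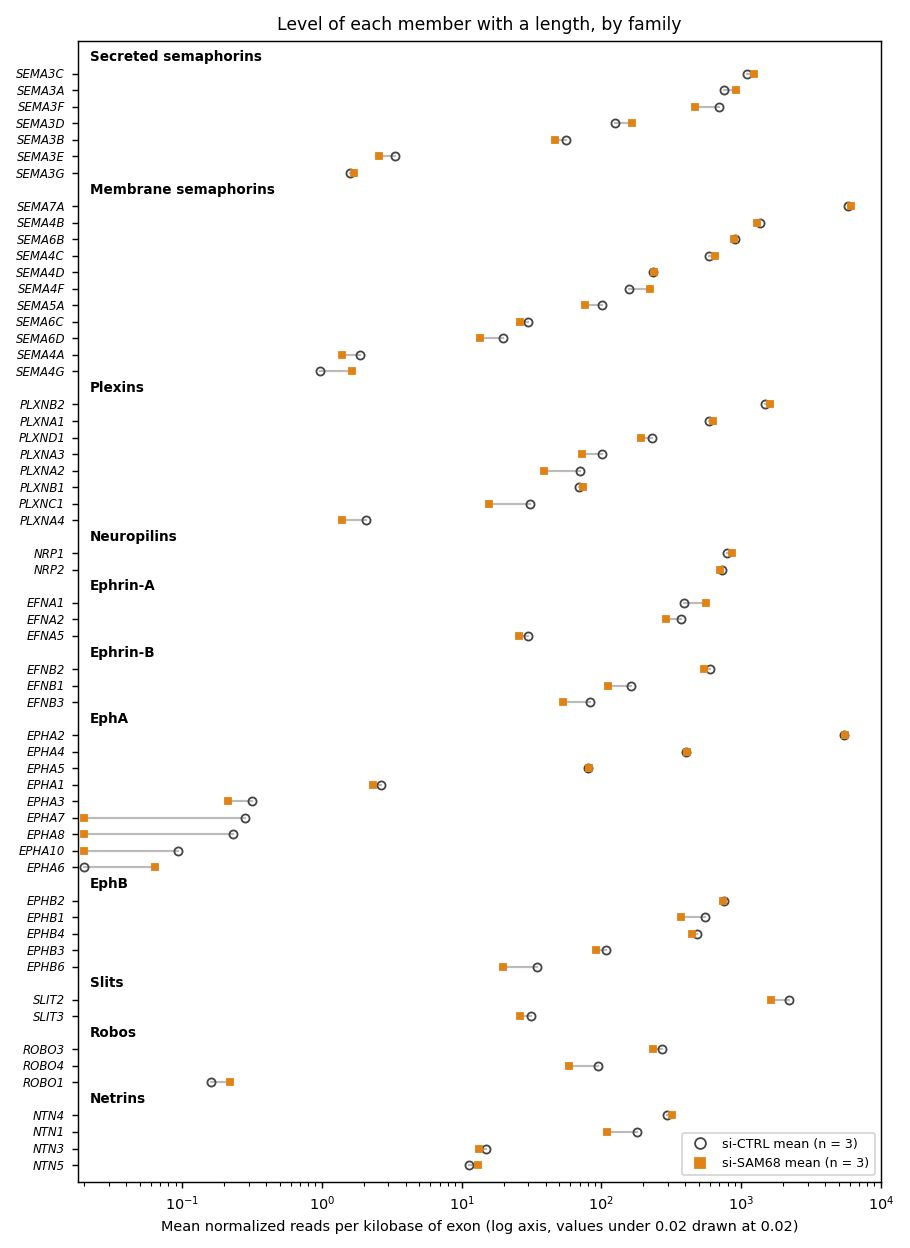
Mean normalized reads per kilobase of exon (log axis) in si-CTRL (open circles) and si-SAM68 (squares), 3 libraries each, for every member with an exon length and at least 1 read, by family. SEMA7A and EPHA2 lie highest, near 5818 and 5479 in si-CTRL, and the longest gaps among members above 10 reads per kilobase are those of PLXNC1 (30.6 to 15.6), PLXNA2 (69.9 to 38.7) and EPHB6 (34.7 to 19.7).

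Of the 6 tested secreted semaphorins 1 fell, 1 rose and 4 did not pass, beside 6.23% lower and 4.47% higher over all loci. SEMA3F, which signals mainly through NRP2 and restrains migration in several tumour models, was at 3252, 2773 and 3315 normalized reads in the si-CTRL libraries and at 2055, 2192 and 1964 in the si-SAM68 libraries. Its groups were far apart, with 66.5% of the control mean left (log2 fold change −0.59 ± 0.09 SE, limma adjusted p = 0.00515), and its fold lay just above the study's threshold of 1.5. SEMA3D, which is linked to endothelial and neural crest migration, went the other way, from 767, 880.4 and 974 in si-CTRL to 1054, 1188 and 1222 in si-SAM68. Every si-SAM68 library exceeded every control library, by a smaller step (0.41 ± 0.11, adjusted p = 0.0451).

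SEMA3A, the prototype ligand of NRP1, and SEMA3C, a ligand of both neuropilins, are the most abundant of the class per kilobase besides SEMA3F. SEMA3A had 7125, 5957 and 6947 normalized reads in si-CTRL and 7276, 8542 and 8394 in si-SAM68, without overlap, and did not pass the adjusted test (0.27 ± 0.10, adjusted p = 0.0983). For SEMA3C the values were 5935, 5639 and 5874 against 6495, 6583 and 6335, a log2 difference of 0.15 with an interval from 0.00 to 0.31. The ratio of SEMA3F to SEMA3A, both per kilobase and taken within each library, was between 0.906 and 0.947 in si-CTRL and between 0.464 and 0.561 in si-SAM68. Such a ratio needs no size factor, and the SEMA3F to SEMA3C ratio likewise ran from 0.581 to 0.667 in si-CTRL and from 0.367 to 0.394 in si-SAM68. SEMA3B (188 and 158 on average) and SEMA3E (27.1 and 21.0) were lower in abundance and did not pass, and SEMA3G stayed below the minimum.

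SEMA4F was the only one of 9 tested membrane semaphorins to pass the adjusted threshold, beside 10.7% of all loci tested. This class 4 transmembrane ligand, also known from brain, had 915, 1006 and 974 normalized reads in si-CTRL and 1436, 1437 and 1186 in si-SAM68. Its lowest si-SAM68 library stood above its highest control library, and the mean rose to 140.2% of control (log2 fold change 0.48 ± 0.10 SE, limma adjusted p = 0.0174). SEMA6D, a plexin-A ligand, and SEMA5A, a semaphorin with thrombospondin repeats, lay on the other side. SEMA6D had 182, 139 and 179 against 121, 112 and 112 without overlap (−0.52, adjusted p = 0.0599). SEMA5A had 1301, 1269 and 1058 against 896, 1080.0 and 766, with the second si-SAM68 library above the third control library (−0.41, adjusted p = 0.0821, or 0.0437 with the replicate number as a block). SEMA4B and SEMA6B, which with SEMA7A are the most abundant of the class per kilobase, had log2 fold changes of −0.06 and −0.01.

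Among the receptors of the semaphorins, 3 plexins fell and no plexin or neuropilin rose, beside 6.23% lower and 4.47% higher over all loci. With 9 plexins and 2 neuropilins tested, the lack of rises is near the share over all loci. PLXNC1, the receptor of SEMA7A, had the largest fold change of all 50 tested members. Its normalized reads were 279, 231 and 222 in si-CTRL and 133, 129.7 and 111 in si-SAM68. The depleted libraries held 50.9% of the control mean, and the lowest control library was well above the highest si-SAM68 library (log2 fold change −0.96 ± 0.15 SE, limma adjusted p = 0.00431). A locus without a gene name overlaps PLXNC1 and could share reads with it, since the counting of strand was not stated. PLXNA2, a receptor of class 6 semaphorins and of class 3 semaphorins bound to neuropilins, fell from 964, 677 and 758 to 378, 494 and 458 (−0.84 ± 0.15, adjusted p = 0.00841). PLXNA3, which pairs with NRP2 in SEMA3F signalling, fell from 1194, 1035 and 1052 to 882, 761 and 732 (−0.47 ± 0.11, adjusted p = 0.0226). In both genes the groups were separate, PLXNA2 with a wider spread among the controls.

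None of the other 6 plexins and neither neuropilin passed the test. PLXNA1, the closest relative of PLXNA2 and more abundant, had 5473, 5227 and 5344 against 5539, 6249 and 5212 normalized reads. The PLXNA2 to PLXNA1 ratio per kilobase was between 0.103 and 0.139 in the si-CTRL libraries and between 0.0540 and 0.0696 in the si-SAM68 libraries. PLXNB2, the most abundant plexin, had a log2 fold change of 0.10 (95% interval −0.10 to 0.31), and the endothelial semaphorin receptor PLXND1 one of −0.26 (adjusted p = 0.129). PLXNA4 was low, with 22.5 to 45.5 normalized reads in si-CTRL and 16.8 to 26.7 in si-SAM68, and its interval was wide (−1.27 to 0.20). The neuropilins were abundant and overlapped between groups. NRP1 ranged from 8336 to 10405 in si-CTRL and from 9482 to 10283 in si-SAM68 (0.13, interval −0.08 to 0.34), and NRP2 from 6525 to 9446 and from 6663 to 7762 (−0.03, interval −0.34 to 0.27).

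**Figure D3:**
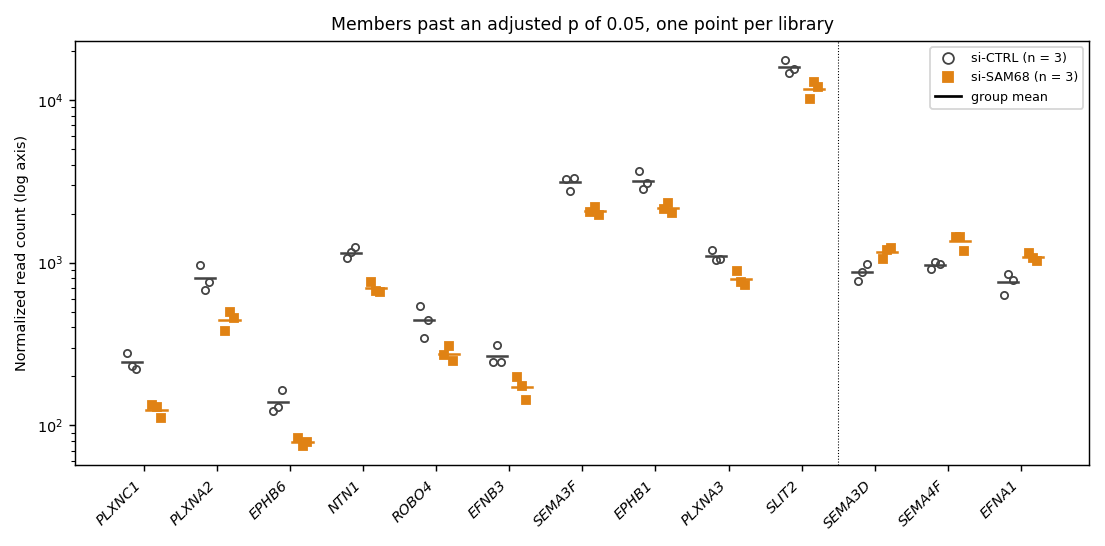
Normalized read counts (log axis) of the 13 members past an adjusted p of 0.05, with a point for each si-CTRL library (open circles) and si-SAM68 library (squares) and a bar at each group mean. The 10 members left of the dotted line were lower and the 3 right of it higher in si-SAM68. In each of the 13, which were picked by a test of these same values, the groups do not overlap. The same holds for 33.9% of all loci tested.

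Of the ephrins, EFNA1 rose and EFNB3 fell. EFNA1, the preferred ligand of EPHA2, had 636, 848 and 782 normalized reads in si-CTRL and 1140.4, 1071 and 1024 in si-SAM68. All 3 depleted libraries lay above the controls, at 143% of the control mean (log2 fold change 0.52 ± 0.12 SE, limma adjusted p = 0.0223). The listed span of the SHC1 locus, which holds far more reads, covers EFNA1 and also overlaps the locus of EFNA3 and EFNA4. That of POLRMT overlaps EFNA2. A share of the reads of these ephrin loci therefore cannot be placed with certainty. The locus of EFNA3 and EFNA4, which lies 39.9 kb from EFNA1 in hg19, was level with 1231, 1380.2 and 1137 against 1429.5, 1152 and 1181 (0.00 ± 0.11), and the reads of the 2 genes in it cannot be told apart. EFNA2, similar to EFNA1 in level per kilobase, had 367, 367 and 318 against 310.3, 277 and 241 (−0.35, adjusted p = 0.124). The EFNA1 to EFNA2 ratio was between 0.853 and 1.21 in si-CTRL and between 1.81 and 2.09 in si-SAM68.

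The B-type ephrins had log2 fold changes below 0 in all 3 members, and EFNB3 alone passed. EFNB3, a ligand studied mostly in the nervous system, went from 245, 311 and 246 normalized reads to 197, 175 and 144 (−0.64 ± 0.16 SE, limma adjusted p = 0.0340). EFNB1 had 679, 445 and 503 against 403, 385 and 317, without overlap but with a wide control spread (−0.54 ± 0.16, adjusted p = 0.0640). EFNB2, the most abundant of the 3 and a ligand of EPHB4 in vessel formation, had 3192, 2786 and 3024 against 2306, 2909 and 2948, with the groups overlapping (−0.15, adjusted p = 0.413).

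None of the 3 tested EphA receptors and 2 of the 5 EphB receptors passed the test, beside 10.7% of all loci tested. The classes were not tested against each other. The EphA receptors had log2 fold changes between 0.02 and 0.03, EPHA2 and EPHA4 (2784 and 2829 normalized reads on average) being the more abundant and EPHA5 (786 and 801) lower. The EphB receptors that fell were EPHB1 and EPHB6. EPHB1 had 3643, 2846 and 3092 normalized reads in si-CTRL and 2129, 2330.1 and 2007 in si-SAM68, which left 67.5% of the control mean (−0.56 ± 0.11 SE, limma adjusted p = 0.0107). Its fold of 1.48 was just short of the study's threshold. EPHB6, whose kinase domain is inactive, fell from 122, 129.8 and 165 to 83.6, 74.5 and 79.3 (−0.80 ± 0.17, adjusted p = 0.0183), and its si-SAM68 libraries lay close together. EPHB2, the most abundant of the class, stayed at a log2 fold change of 0.00 with an interval from −0.27 to 0.27, and EPHB4 at −0.12. The EPHB1 to EPHB2 ratio per kilobase was between 0.684 and 0.804 in si-CTRL and between 0.464 and 0.521 in si-SAM68. The EPHB1 to EPHB4 ratio was between 0.962 and 1.41 in si-CTRL and between 0.759 and 0.945 in si-SAM68. EPHB3, with 456 and 386 on average, did not pass (adjusted p = 0.335). A locus without a name, with few reads, overlaps EPHB1.

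SLIT2 and ROBO4 fell, and both lost the call when the replicate number entered the fit as a block. SLIT2, which is often silenced in breast tumours but was abundant here, had 17584, 14708 and 15521 normalized reads in si-CTRL and 10175, 12892 and 12041 in si-SAM68. That is the largest drop in reads among the 10 lowered members, from 15938 ± 1482 to 11703 ± 1389.8 (SD, n = 3), at a log2 fold change of −0.45 ± 0.10 SE (limma adjusted p = 0.0245, or 0.0544 with the block). SLIT3 (326, 322 and 265 against 277, 273 and 218) had a log2 fold change of −0.25 and did not pass. The SLIT2 to SLIT3 ratio per kilobase overlapped between the groups, at 61.9 to 79.2 in si-CTRL and 49.7 to 74.8 in si-SAM68. It was the only overlap among the 9 within-family ratios computed. Each ratio set a called member over an uncalled relative, in pairs chosen after the values were seen. Their separation therefore adds no separate support for the calls. The locus of SLIT1 joins it with ARHGAP19, so its values (1150.2 and 1012 on average) are uncertain for SLIT1. ROBO4, a receptor otherwise known from endothelium, went from 542, 344 and 445 to 271, 308 and 250.2 (−0.66 ± 0.17, adjusted p = 0.0344, or 0.0563 with the block). The gap between its lowest control and its highest si-SAM68 library is the narrow one of 344 against 308. ROBO3, whose locus lies 2.22 kb away from that of ROBO4, had 1659, 1208 and 1258 against 1302, 1145 and 1066 and overlapped (−0.22, adjusted p = 0.311). The ROBO4 to ROBO3 ratio was between 0.304 and 0.378 in si-CTRL and between 0.223 and 0.288 in si-SAM68. ROBO1 had at most 3.02 normalized reads in any library and ROBO2 was at 0, so the 2 classical Slit receptors were at or below the limit of detection.

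The summed level of 5 endothelial markers was between 484 and 562 normalized reads in si-CTRL and between 169 and 185 in si-SAM68. Most of this sum was TIE1, at 407 to 512 in si-CTRL and 137 to 154 in si-SAM68. Of the 4 tested, 1 passed the test, TIE1 (log2 fold change −1.65, adjusted p = 1.86e-04), while PECAM1, CDH5 and VWF had means of at most 30.5 and TEK was at 0. Of 5 neuronal markers, SNAP25 (−1.13, adjusted p = 0.00209) and SYT1 (−0.69, adjusted p = 0.00504) fell, RBFOX3 was near 0, and STMN2 and ELAVL4 were at 0, so that the sum ran from 976 to 1120 in si-CTRL and from 549 to 650.4 in si-SAM68. The leukocyte genes PTPRC, CD3E and CD14 had means of at most 7.25, and CD68, whose locus also holds other genes, was not informative. Of the 5 fibroblast genes, none of which was called, DCN and LUM were near 0, while COL1A1 (160257 and 156656) and PDGFRA (4747 and 4277) were expressed at like levels in both groups. The part of these genes in the results was not tested.

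NTN1 had the lowest adjusted p of all members. This netrin, studied in tumours as a survival ligand of UNC5 and DCC receptors, had 1061, 1155 and 1239.7 normalized reads in si-CTRL and 758, 672 and 660.2 in si-SAM68. The groups were far apart, and the depleted libraries kept 60.4% of the control mean (log2 fold change −0.73 ± 0.10 SE, limma adjusted p = 0.00267). NTN4, a basement membrane netrin of similar read count, had 1109.8, 1155 and 1115 against 1345, 1219 and 1114 (0.12, adjusted p = 0.459). The NTN1 to NTN4 ratio per kilobase was accordingly 0.574 to 0.667 in si-CTRL and 0.330 to 0.356 in si-SAM68. NTN3 and NTN5 were low, with means between 21.4 and 29.6, and their intervals reached from −0.93 to 0.84 and from −0.51 to 1.08.

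The 13 members below the minimum mean were the Eph receptors EPHA1, EPHA3, EPHA6, EPHA7, EPHA8 and EPHA10, the Robo receptors ROBO1 and ROBO2, the membrane semaphorins SEMA4A, SEMA4G, SEMA5B and SEMA6A, and SEMA3G. No read was counted for ROBO2, SEMA5B and SEMA6A in any library, which at 3 reads per library allows a level of up to 2.76 to 3.75 normalized reads. EPHA7 had 2.50, 1.94 and 1.90 normalized reads in the si-CTRL libraries and 0 in all 3 si-SAM68 libraries, which is below that limit in both groups, so no fold is given. These limits cover counting error only.

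The siRNA seeds shown above were compared with the 3′UTRs of the members, because an siRNA can lower a transcript through its seed alone. For each gene, the longest 3′UTR that GENCODE lists was searched for the 7 bases opposite the seed of each of the 4 siRNAs. Of 49 tested members with a 3′UTR, 16 (32.7%) held at least 1 match, beside 29.8% of the 11973 tested loci with a single gene. By call, a match was present in 6 of the 10 lowered members (60%), in 1 of the 3 raised ones (33.3%) and in 9 of the other 36 (25%). Over all loci tested the same shares were 39.6%, 32.6% and 28.7%. The median 3′UTR length of the lowered members was 1676 bases and that of the other 36 was 1905 bases. Over all loci tested it was 1585 bases for lowered, 2118 for raised and 1329 for uncalled loci. The 4 control siRNAs had matches in 7 of the 10 lowered (70%), 2 of the 3 raised (66.7%) and 17 of the other 36 members (47.2%), beside 57.6%, 74.6% and 55.1% over all loci tested. For both pools the share was larger in the lowered members than in those without a call. Over all loci the share of the SAM68 pool was largest among lowered loci and that of the control pool among raised loci. The 4 lowered members without a match for the SAM68 pool were NTN1, EPHB1, EPHB6 and ROBO4. A match of 7 bases is a description of the sequence and does not show that a site is used, and its part in the changes was not tested. The matches of the members that changed are shown in windows of 29 bases on GRCh38, as the RNA reads, with the match in capitals. PLXNA3 held 3 matches, of which the last is given.
PLXNC1, siSAM68 2, chr12:94306455-94306483, plus strand: agtctttttagTGCTGATtttttaattcc
SLIT2, siSAM68 2, chr4:20620511-20620539, plus strand: atcggttacacTGCTGATgtttgtaaatt
EFNB3, siSAM68 2, chr17:7710739-7710767, plus strand: cttgtgctctgTGCTGATtttaggacagc
PLXNA2, siSAM68 4, chr1:208026893-208026921, minus strand: catttgatgtaTATTGGGgaaataatgag
SEMA3F, siSAM68 4, chr3:50188663-50188691, plus strand: tattctctattTATTGGGgataggagaag
PLXNA3, siSAM68 4, chrX:154477722-154477750, plus strand: cacaacaagaaTATTGGGaggtgccccag
SEMA3D, siSAM68 4, chr7:84996002-84996030, minus strand: ttggttaacctTATTGGGaatggataatt

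Promoters were read from RefSeq (GRCh38.p14) as 250 bases before to 50 bases after the annotated start, and 56 of the member genes had at least 1. A GC box, GGGCGG or its complement CCGCCC, which factors of the SP family bind, was searched on both strands. It occurred in 73.9% of the 88 member promoters, in 64.8% of promoters of all tested loci with a single gene and in 45% of all promoters in the table. Among the lowered members 10 of 11 promoters, which belong to 8 genes since NTN1 and EFNB3 had no entry, held it, among the raised members 2 of 3, and among the tested members without a call 42 of 52. The median number of CpG dinucleotides was 20.0 in promoters of lowered members and 27.0 in those without a call. The promoters of 2 lowered genes (SLIT2 with 5 boxes and PLXNA2 with 3) and 2 raised ones (EFNA1 with 5 and SEMA3D with none) are shown to let the windows be compared, with the boxes in capitals. Among called genes with 1 listed promoter that are not shown, the lowered EPHB1, EPHB6 and ROBO4 had 1 box each. The lowered PLXNA3 had 3 and the raised SEMA4F 2. A match is a feature of these letters and was not tested as a cause of any change.
SLIT2, chr4:20251655-20251954, plus strand: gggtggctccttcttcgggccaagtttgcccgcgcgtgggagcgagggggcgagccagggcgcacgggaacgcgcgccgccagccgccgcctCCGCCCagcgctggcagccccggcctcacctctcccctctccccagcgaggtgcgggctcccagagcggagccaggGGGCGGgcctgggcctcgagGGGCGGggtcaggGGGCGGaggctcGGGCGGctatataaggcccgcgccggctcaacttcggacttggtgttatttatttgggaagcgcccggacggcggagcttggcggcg
PLXNA2, chr1:208244335-208244634, minus strand: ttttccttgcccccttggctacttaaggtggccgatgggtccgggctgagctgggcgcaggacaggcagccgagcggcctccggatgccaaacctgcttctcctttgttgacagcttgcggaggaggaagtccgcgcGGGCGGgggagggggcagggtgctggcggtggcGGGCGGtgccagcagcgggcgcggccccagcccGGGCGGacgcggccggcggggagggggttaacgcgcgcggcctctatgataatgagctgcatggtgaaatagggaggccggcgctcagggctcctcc
EFNA1, chr1:155127626-155127925, plus strand: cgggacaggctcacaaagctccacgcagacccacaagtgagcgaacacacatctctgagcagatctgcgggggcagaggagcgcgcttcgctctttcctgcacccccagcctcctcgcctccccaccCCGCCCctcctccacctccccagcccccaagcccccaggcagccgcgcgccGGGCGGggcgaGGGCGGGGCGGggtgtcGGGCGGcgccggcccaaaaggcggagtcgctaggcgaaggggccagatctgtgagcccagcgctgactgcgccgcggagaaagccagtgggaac
SEMA3D, chr7:85187007-85187306, minus strand: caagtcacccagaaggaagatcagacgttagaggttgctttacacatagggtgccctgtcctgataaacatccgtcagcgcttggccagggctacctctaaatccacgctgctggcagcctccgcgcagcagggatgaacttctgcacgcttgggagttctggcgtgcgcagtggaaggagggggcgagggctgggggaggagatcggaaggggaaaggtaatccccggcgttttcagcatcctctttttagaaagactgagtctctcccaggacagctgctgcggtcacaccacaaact

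Genes that act with these families were read from a list of 69, of which 68 were in the table and 61 were tested. At an adjusted p under 0.05, 15 of the 61 (24.6%) differed, 4 higher and 11 lower, beside 4.47% and 6.23% of all loci. The median log2 fold change of the list was −0.08. UNC5A, a netrin receptor of the dependence type, fell from 492, 454 and 445 normalized reads to 318, 263 and 208, the largest fold change among the called genes of the list (−0.84 ± 0.15 SE, limma adjusted p = 0.01). NEO1, the neogenin receptor, was at 5444 and 5877 on average and did not pass, and DCC, UNC5D and DSCAM were at 0.

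Among the VEGF ligands and receptors, which share the neuropilins with class 3 semaphorins, 3 of 7 fell and none rose, beside 6.23% lower and 4.47% higher over all loci. VEGFA had 10834, 7691 and 8705 normalized reads in si-CTRL and 5868, 6421 and 5830.0 in si-SAM68 (log2 fold change −0.57, limma adjusted p = 0.0148). VEGFC, the main ligand of lymphatic vessels, went from a mean of 12614 to 8866 (−0.49, adjusted p = 0.0345, or 0.0591 with the replicate block). FLT1, a VEGF receptor, went from 352 to 226 (−0.64, adjusted p = 0.0206). VEGFA, VEGFC and FLT1 each lost the call without at least 1 library, with limma adjusted p up to 0.0829, 0.124 and 0.0986. They also lost it with eBayes without a trend (0.0772, 0.122 and 0.0573). PGF (−0.49, adjusted p = 0.0535) and FLT4 (−0.47, adjusted p = 0.0607) lay just outside, and KDR was at 0. The locus counted for VEGFD joins it with PIR, so its value is uncertain for VEGFD. It was higher without overlap and did not pass (0.26, adjusted p = 0.139).

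Intracellular partners passed the test in both directions. Of the Eph and ephrin effectors, KALRN fell from 1709.8, 1601 and 1588 normalized reads to 952, 927 and 946, with tight groups (−0.79 ± 0.08 SE, limma adjusted p = 7.40e-04). The adaptor NCK2 fell as well (−0.81, adjusted p = 0.00886), while its relative NCK1 had a log2 fold change of 0.13 (adjusted p = 0.318). CHN1, the Rac inhibitor α-chimaerin downstream of EPHA4, rose from 427, 395 and 380.3 to 598, 580.4 and 636 (0.59 ± 0.10, adjusted p = 0.00720). ADAM10, a protease that cuts ephrins (0.34, adjusted p = 0.0156), and RASA1, a Ras inhibitor (0.36, adjusted p = 0.0375, or 0.0701 with the replicate block), also rose. Of the semaphorin and plexin effectors 4 of 19 fell and none rose, beside 6.23% lower and 4.47% higher over all loci. With 19 tested, the lack of rises is near that share. Those that fell were the kinase FYN (−0.46, adjusted p = 0.00691), DPYSL4 (−0.52, adjusted p = 0.00785) and DPYSL2 (−0.40, adjusted p = 0.0320) of the CRMP family, and the actin oxidase MICAL2 (−0.40, adjusted p = 0.0238). Among the Slit and Robo effectors VASP fell (−0.39, adjusted p = 0.0237) and USP33, which deubiquitinates ROBO1, rose (0.31, adjusted p = 0.0367). None of the 6 netrin effectors passed, beside 10.7% of all loci tested. CHN2 (−0.80) and FES (0.74) had large fold changes on few reads, at means of at most 20.3, and did not pass.

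The calls of NTN1, PLXNC1, SEMA3F and PLXNA2 held when any single library was left out, with the highest adjusted p at 0.0251, 0.0323, 0.0404 and 0.0472 in that order, each without si-SAM68 replicate 3. The other 9 lost the call without at least 1 library. Without si-SAM68 replicate 3 the adjusted p was 0.0669 for EPHB1, 0.0778 for EPHB6, 0.138 for EFNB3, 0.106 for PLXNA3, 0.148 for ROBO4, 0.178 for SEMA3D and 0.0889 for SLIT2. SEMA4F reached 0.0848 without si-SAM68 replicate 2 and EFNA1 0.0871 without si-SAM68 replicate 1. No log2 fold change of the 13 changed sign in any of these fits, and with a library left out the number of calls over all loci was between 625 and 2839.

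**Figure D4:**
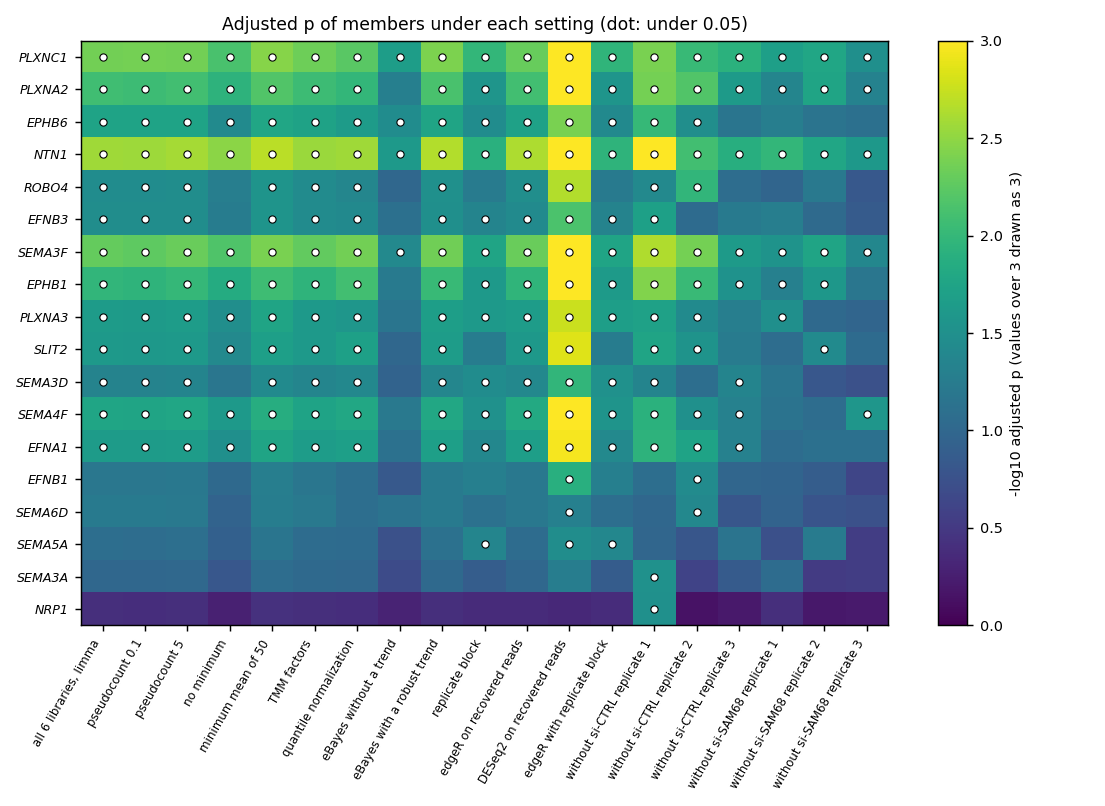
Negative log10 of the adjusted p (colour) for the 13 called members and the 5 other tested members that passed in at least 1 setting (EPHA7, below the minimum, passed with no minimum and is not drawn), under each way of fitting (columns, all 6 libraries or 1 left out). A dot marks an adjusted p under 0.05, and the rows of PLXNC1, NTN1 and SEMA3F hold a dot in every column.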

How the data were processed

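RNA of MDA-MB-231 cells (si-CTRL and si-SAM68, 3 libraries each) was sequenced by the authors after poly(A) selection. The values they deposited are a signal: reads per FAST DB locus (hg19) divided by a DESeq2 size factor. The submitters' processing notes name FastQC, Picard, SAMtools, STAR 2.4.0 and DESeq2. The counting program and its use of strand are not given in the sources used here, so overlapping loci and paralogs can share reads. Members such as SLIT2 (with SLIT2-IT1), EPHA2 (with SPEN and SLC25A34) and EPHB3 (with EIF2B5) also overlap other listed loci. All values (100%, tolerance 0.01) were whole multiples of what 1 read is worth in their library, which gave the reads back.

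Groups and replicate numbers came from the sample labels. log2(normalized read count + 1) was tested with limma 3.58.1 (R 4.3.3, eBayes with a trend) over 18849 loci (mean of 10 or more), with Benjamini-Hochberg adjustment over all of them, after tests on simulated data. Fold changes on this scale understate those of low genes. Same-numbered libraries deviated together (correlations of 0.105, 0.231 and 0.125, other pairs −0.125 to 0.00687), so the replicate number was also used as a block. No pair of replicates agreed within sampling noise. Alternatives were edgeR 4.0.16 and DESeq2 1.42.0 on recovered reads, with edgeR with the block added after seeing the data, and other pseudocounts, minimums, scalings, variance models and omitted libraries.

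The members and lists were chosen with earlier results of these data known. The genes named were the silenced gene, members past either threshold or below the minimum, the most abundant and most changed of each family, called and most changed related genes, and markers, of which 1 is not reported here. SEMA5A, SEMA3B, SEMA3E, PLXNA4, EPHB3, NCK1, NEO1, PGF, FLT4, VEGFD, FES, related genes at 0 and the pairs in ratios were named after their values were seen. Exon lengths, 3′UTRs and promoters came from GENCODE 29 (GRCh38) and RefSeq by symbol.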

Additional observations from a re-analysis of the deposited data

How the results depend on the processing

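KHDRBS1 kept its direction and call under each of the 18 alternatives, at log2 fold changes between −4.66 and −4.56. The 13 members past an adjusted p of 0.05 numbered 4 with eBayes without a trend (EPHB6, NTN1, PLXNC1 and SEMA3F), 11 with no minimum, 16 with DESeq2 and 13 with edgeR, pseudocounts of 0.1 and 5, a minimum mean of 50, TMM or quantile scaling and a robust trend. With a replicate block 12 passed (SLIT2 and ROBO4 were lost and SEMA5A was gained), in limma as in edgeR, and the block changed no other member's call. Leaving out a library gave between 5 and 15 members: 15 and 13 without si-CTRL replicates 1 and 2, 8 without si-CTRL replicate 3, and 6, 6 and 5 without si-SAM68 replicates 1, 2 and 3. NTN1, PLXNC1 and SEMA3F kept their call in every alternative, and no called member changed sign. The 7 members past the study's thresholds numbered between 5 (without si-SAM68 replicate 3) and 10 (without si-CTRL replicate 2). The 15 related genes numbered 6 with eBayes without a trend, 13 with the replicate block, 17 with a minimum mean of 50, 20 with DESeq2 and between 5 (without si-SAM68 replicate 3) and 20 (without si-CTRL replicate 1) with a library left out, with 7 and 9 without si-SAM68 replicates 1 and 2. Over all loci the calls numbered 899 with eBayes without a trend and 2811 with DESeq2, beside 2017. With 1 library left out they numbered between 625 (without si-SAM68 replicate 3) and 2839 (without si-CTRL replicate 1). The cause of these differences was not tested. Depth limits the 13 members below the minimum, of which EPHA7 passed in limma with no minimum on at most 2.50 normalized reads per control library and the other 9 with any read did not pass.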
